A study of Mus musculus with 46 samples.

Results

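The complement and coagulation genes of the liver were taken as a list of 40 genes, named by symbol and looked up in the gene counts of the mouse liver libraries. All 40 of 40 were found among the 55487 genes of the count tables, 19 of them from the complement system and 21 from coagulation, fibrinolysis and their control. All 40 passed the filter on low counts, and none had a count of 0 in any liver library. The 13 livers fell into 3 groups by labelled genotype, which were 6 control livers, 4 livers labelled Mfn DKO and 3 labelled Tfam KO, each liver being a biological replicate. The description of every liver sample, controls included, contains the letters AAV with no expansion. The labels used here give no age, sex, strain, promoter or agent for the liver groups, and the series' design text mentions males and females for islets. Paired-end libraries were made from DNase-treated RNA of frozen liver. The study also sequenced pancreatic islets, used here only to compare levels.

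Hepatocytes make most of the complement and clotting proteins of the blood. Complement is started by C1 on antibody, by mannose-binding lectins on sugars, or by spontaneous turnover of C3. All routes cleave C3 and end in the pore built from C5b, C6, C7, C8 and C9. Clotting factors are mostly protease zymogens that activate each other in a chain, ending with thrombin, which turns fibrinogen into fibrin. Factor XIII then cross-links the fibrin and plasmin dissolves it, while antithrombin, heparin cofactor II and the protein C system hold the chain in check. Several of these genes, such as those of C3 and fibrinogen, are also acute-phase genes that hepatocytes raise in inflammation. Mfn1 and Mfn2 encode the mitofusins, which fuse the outer membranes of mitochondria. Tfam encodes a protein that packages mitochondrial DNA and takes part in its transcription.

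The 13 libraries held 41961114 to 56894510 counts each, and the lowest member count in any library was 279. Levels are given as CPM, counts scaled to a common library total after TMM, a factor that sets most genes level between libraries. Differences are given as log2 fold changes with a standard error (SE) from edgeR's quasi-likelihood test over 17024 genes and all 13 livers, and a gene was called at a Benjamini-Hochberg adjusted p of at most 0.05. The targeted genes followed the labels. Tfam measured 54.1 to 66.2 CPM in controls and 13.1 to 15.9 CPM in Tfam KO livers. Mfn1 measured 67.8 to 88.3 CPM in controls and 15.6 to 25.3 CPM in Mfn DKO livers, and Mfn2 measured 113 to 191 CPM and 32.3 to 45.1 CPM in the same groups. The hepatocyte marker list was detected in full in every library.

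Features of single libraries bear on what follows. Tfam KO replicate 2 stood apart from all other livers in the members. There 40 of 40 lay below every control and 38 had the lowest level of all 13 livers, counts not made over all genes. In that library the summed CPM of the hepatocyte markers was 35483, against 120334 to 174875 in controls, and that of the neutrophil markers was 25.9, against 1.73 to 8.91, and the part of either in the result was not tested. The 13 livers also fell into 6 with low Xist, at 0.0847 to 0.704 CPM, and 7 with high Xist, at 380.2 to 788 CPM. Each genotype held livers of both kinds, and the Y-linked gene Ddx3y showed the opposite pattern. Scaling mattered as well. The TMM factors were 0.862 to 0.929 in controls, 0.995 to 1.04 in Mfn DKO livers and 1.16, 1.43 and 1.04 in Tfam KO livers. With plain library totals the median log2 fold change of all genes moved from 0.02 to 0.21 for Mfn DKO and from 0.03 to 0.46 for Tfam KO, so the changes below are relative to the bulk of genes. Over all genes, 891 higher and 790 lower calls for Mfn DKO became 1653 and 356 with library totals, and 3073 and 1919 for Tfam KO became 7250 and 904.

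In control livers the members spanned a wide range of abundance. On the authors' TPM values, which correct for transcript length, the highest were Fgg at 2975 ± 349.9 TPM (SD, n = 6), Vtn at 2967 ± 294, Fga at 2948 ± 363, C3 at 2834 ± 672 and Fgb at 2655 ± 361. Neighbours in this order differed by less than their SD. The lowest were Masp1 at 37.6 ± 4.31, C2 at 16.0 ± 3.62 and Cfb at 12.9 ± 2.20 TPM. The members made up 2.71 to 3.31% of all TPM in control livers. In 18 control islet libraries of the series the median was 169.9 TPM for C1qa, 71.2 for C8b, 65.2 for Serping1, 38.8 for C1qb and 16.4 for C1qc, and no median of the other 35 members exceeded 6.92 TPM. Those libraries pooled the controls of the Tfam islets, labelled F or M, with the controls of the Clec16a islets, labelled HFD or RFD. C1q, the recognition molecule of the classical pathway, is made mainly by macrophages.

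Livers labelled Mfn DKO had lower transcripts of 2 members, the clotting factor XI gene F11 and the lectin pathway protease gene Masp2, at 41.4% and 54.7% of the control mean. No member was called higher. Among all genes tested, 9.87% were called and 4.64% were called lower, so 2 of 40 is near the background. Of the 40 members, 33 had a log2 fold change below 0, and their median was -0.34 against 0.02 over all genes. With library totals the median was -0.14, against 0.21, and F2, Fga, Fgb, Fgg and Pros1 were above 0. For 13 members every Mfn DKO liver lay below every control liver, and for 2 members, F5 and Kng1, every Mfn DKO liver lay above. Among all genes, 10.3% lay wholly below and 8.94% wholly above. In whole liver, fewer cells that make a transcript and less transcript per cell cannot be told apart.

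The count of calls in Mfn DKO livers depended on which libraries set the spread. With the Mfn DKO and control livers fitted alone, 17 members were called, 14 lower and 3 higher, where 27% of all genes were called and 14.1% were called lower. The 3 called higher were C3, F5 and Kng1. With all groups but without Tfam KO replicate 2, 11 members were called, 9 lower and 2 higher. There 3379 of 17317 genes were called, 1723 lower and 1656 higher. The fitted fold changes hardly moved between these fits, with a median of -0.34 in each. Leaving out Mfn DKO replicate 1 left no member called, and F11 alone was called without any other single liver of these groups except control replicate 3, without which F11 and Masp2 were called. With plain library totals Kng1 was called higher beside these genes (log2 fold change 0.62, adjusted p = 0.0356).

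Livers labelled Tfam KO had lower transcripts of 8 members, and no member was called higher. They were the complement genes Masp2 and C8g and the coagulation genes F11, F13b, Klkb1, Cpb2, Hrg and Proc, at the fold changes given below. Among all genes, 29.3% were called and 11.3% were called lower, so 8 of 40 called lower is above that share, a description with no test. All 40 fitted fold changes were below 0, with a median of -0.93 against 0.03 over all genes. With library totals 7 members were called, the median was -0.60 against 0.46, and C1qb was above 0. For 14 members every Tfam KO liver lay below every control, and for none did every Tfam KO liver lie above, where 10.2% and 10.7% of all genes did so.

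The 3 Tfam KO livers differed widely among themselves. The median member stood at 49.9% of the control mean in replicate 1, 14.1% in replicate 2 and 89.8% in replicate 3. Replicate 3 had 15 members below every control and 4 above, whereas replicate 1 had 33 below and none above. The share of all genes outside the control range in a single liver was not counted. Without replicate 2, 8 members were called, 7 of which were among the 8 above, 38 of 40 fold changes were below 0, the median was -0.48, and 14.5% of all genes were called and 5.95% called lower. Without replicate 3, 34 members were called lower with a median of -1.72, where 41.8% of all genes were called and 19% called lower. Without replicate 1, and also when only Tfam KO and control livers were fitted, F11 was the single member called. Leaving out control replicates 1 to 6 in turn left 3, 4, 7, 6, 4 and 3 members called. Over all genes those fits called 3921, 4136, 4591, 4202, 4416 and 3987. F11, Klkb1 and Masp2 stood each time, C8g and F13b were lost each time, Hrg stood only without replicate 3, Cpb2 only without replicate 3 or 4, and Proc was lost without replicate 1 or 6. The summed hepatocyte markers ran in the same order as the members, at 83460, 35483 and 135537 CPM in replicates 1 to 3, and their part in the result was not tested. The summed Kupffer cell and macrophage markers ran in that order too, at 577, 386 and 1165 CPM, and the endothelial markers did not, at 343, 397 and 411 CPM. In the plot of members by liver, the points of replicate 2 lie far to the left in almost every row.

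**Figure D1:**
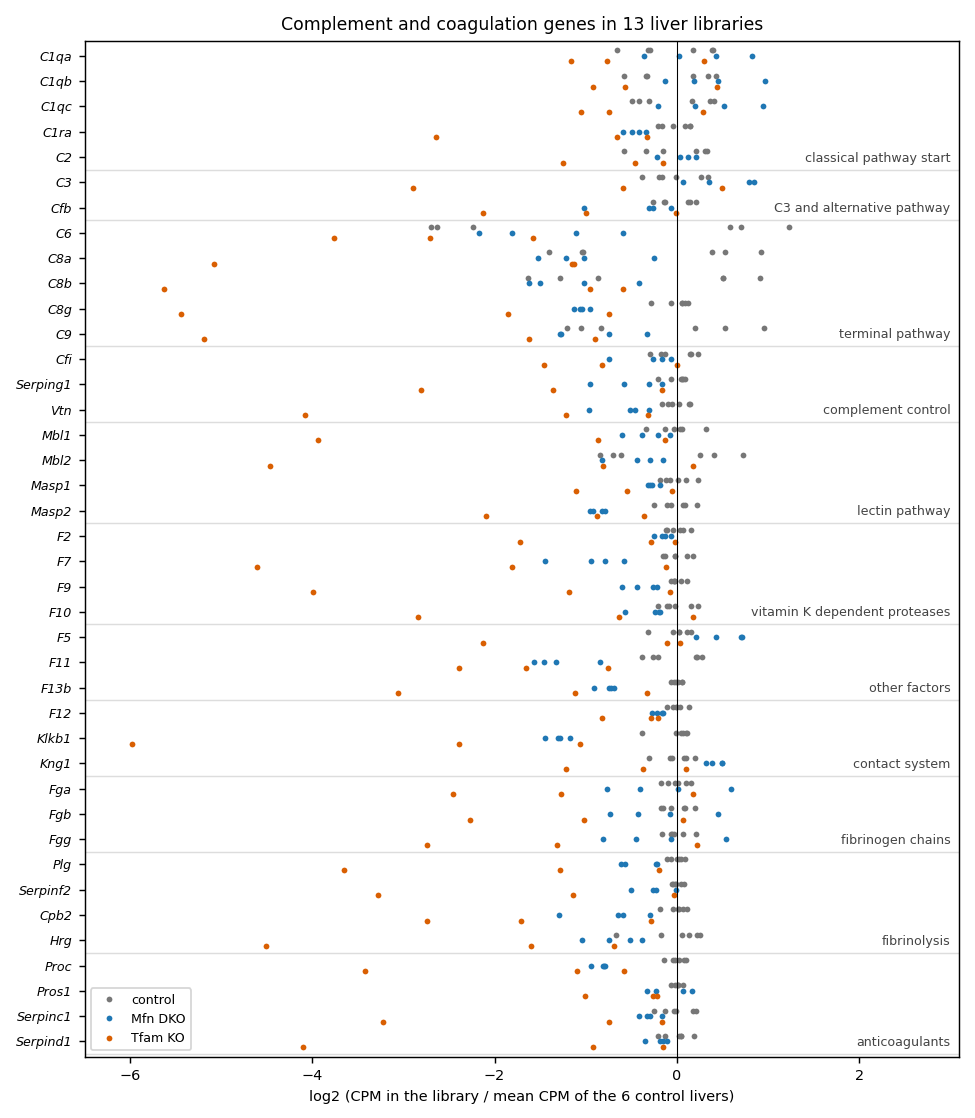
Level of each of the 40 members in each liver, as log2 of its CPM over the mean of the 6 controls (x axis), with members grouped by role (y axis) and 1 point per liver. Mfn DKO livers sit mostly left of 0, and Tfam KO replicate 2 lies below every control for all 40 members.

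The start of the classical pathway is served by the C1q chains C1qa, C1qb and C1qc, the C1r protease C1ra, and C2, which C1s cleaves. None of these 5 was called in either genotype. C1ra, the most abundant of them in control livers, measured 216, 254 and 278 CPM (lowest, median and highest of 6) in controls. Its Mfn DKO livers held 198, 167, 188 and 177 CPM and its Tfam KO livers 159, 40.2 and 199 CPM, so neither group overlapped the controls. The differences did not pass the test (Mfn DKO log2 fold change -0.46, adjusted p = 0.356, Tfam KO -0.92, adjusted p = 0.0624). In the fit of Mfn DKO and control livers alone C1ra was called lower (adjusted p = 0.00621). As a group these 5 had a median log2 fold change of 0.30 in Mfn DKO livers, where the other 4 were above 0. The macrophage markers, which share their main cell of origin with C1q, summed to 659 to 1130.4 CPM in controls, 842 to 1738 CPM in Mfn DKO livers and 386 to 1165 CPM in Tfam KO livers, and their part in these values was not tested.

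C3, the protein on which all complement routes converge, ranged over 5202, 6386 and 8582 CPM in controls. Mfn DKO livers held 11698, 8644, 7092 and 12125 CPM, and Tfam KO livers 4481, 907 and 9561 CPM. Each Mfn DKO liver lay above the control median and replicate 3 lay among the controls, while the Tfam KO livers lay below, far below and above them. Neither difference passed the test (log2 fold change 0.55, adjusted p = 0.449 and -0.44, adjusted p = 0.535), though C3 was called higher with Mfn DKO and control livers fitted alone (adjusted p = 0.0463). In Mfn DKO livers C3 ran in the same order as the sum of the acute-phase list. That sum was 11084 to 14925 CPM in controls and 21357, 18881, 12266 and 26647 CPM in Mfn DKO replicates 1 to 4. The median log2 ratio of the list to the control mean was 0.16, -0.45, -0.97 and 1.16 in those livers, against -0.43 to 0.22 in controls. By that median replicates 2 and 3 lay below every control, where C3 did not. The part of the list in the spread of C3 was not tested. Cfb, the protease of the alternative C3 convertase, was not called in either genotype (-0.37, adjusted p = 0.455 and -0.80, adjusted p = 0.0959). On the annotation 79.5% of the exonic bases of Cfb and 42.8% of those of C2 also belong to Gm20547, which was at 0 counts in every liver.

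The lectin pathway supplied Masp2, the protease that mannose-binding lectin carries and that cleaves C4 and C2. Masp2 (ENSMUSG00000028979, chr4:148602554-148615499, GRCm38) measured 132, 157 and 183 CPM in controls, 91.0, 88.6, 80.9 and 83.2 CPM in Mfn DKO livers and 85.6, 36.6 and 122 CPM in Tfam KO livers. Every liver of either genotype lay below the lowest control, and the 4 Mfn DKO livers differed by little. The controls split by Xist, at 165 to 183 CPM with low and 132 to 150 CPM with high Xist, and the knockout livers did not. Masp2 fell in Mfn DKO livers (log2 fold change -0.87, SE 0.24, adjusted p = 0.0399) and in Tfam KO livers (log2 fold change -0.95, SE 0.27, adjusted p = 0.0204). The Tfam KO call was lost with these 2 groups fitted alone (adjusted p = 0.0557) and stood without Tfam KO replicate 2 (log2 fold change -0.60, adjusted p = 0.0247). The Mfn DKO call was lost without any single Mfn DKO or control liver other than control replicate 3. On the annotation used here 54.9% of the exonic bases of Masp2 lie opposite exons of Tardbp, and whether counting used strand is not given in the sources used here. Tardbp was not called in Mfn DKO livers (log2 fold change 0.05, adjusted p = 0.822) and rose in Tfam KO livers (0.43, adjusted p = 0.0249).

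The lectin genes themselves were not called. Mbl2, the more abundant on the TPM scale, ranged over 389, 645 and 1159 CPM in controls, 395, 629, 516 and 569 CPM in Mfn DKO livers and 398, 31.7 and 790.3 CPM in Tfam KO livers. These groups overlapped, and the controls alone spanned the range of all but Tfam KO replicate 2. Its log2 fold changes were -0.41, adjusted p = 0.684 and -0.78, adjusted p = 0.394. Masp1 and Mbl1 were not called in either genotype, with log2 fold changes of -0.27 and -0.30 in Mfn DKO and -0.50 and -0.97 in Tfam KO livers.

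The terminal pathway forms the membrane pore. Of its 5 members, C8g, the gamma chain of C8, was called in Tfam KO livers. C8g measured 426, 539.6 and 565 CPM in controls, 253, 249, 238 and 269 CPM in Mfn DKO livers and 143, 11.98 and 309.9 CPM in Tfam KO livers. Every liver of either genotype lay below the lowest control, and Tfam KO replicate 2 lay far below the rest. C8g fell in Tfam KO livers (log2 fold change -1.74, SE 0.62, adjusted p = 0.0496) and also without replicate 2 (log2 fold change -1.19, adjusted p = 0.0079). In Mfn DKO livers it was not called beside all groups (-1.04, adjusted p = 0.226) and was called lower with those livers and controls fitted alone (adjusted p = 5.04e-05). The alpha and beta chain genes C8a and C8b, with C6 and C9, are described with Xist below, because their control livers were split.

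Complement is held back in plasma by factor I (Cfi), which cleaves C3b, by C1 inhibitor (Serping1) and by vitronectin (Vtn), which blocks the pore. Vtn measured 2507, 2780.0 and 3102 CPM in controls, 1972, 2049.5, 1437 and 2275 CPM in Mfn DKO livers and 1208, 166 and 2258 CPM in Tfam KO livers. No liver of either genotype reached the lowest control. Neither difference passed the test (log2 fold change -0.54, adjusted p = 0.469 and -1.22, adjusted p = 0.0962), and Vtn was called lower with Mfn DKO and control livers fitted alone (adjusted p = 0.00942). Cfi and Serping1 had log2 fold changes of -0.29 and -0.47 in Mfn DKO and -0.64 and -1.08 in Tfam KO livers, none of them called.

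Factor XI, which activates factor IX, showed the largest change among members called in Mfn DKO livers. F11 (ENSMUSG00000031645, chr8:45241174-45262031, minus strand) measured 75.4, 99.3 and 119 CPM in controls, 33.2, 54.6, 35.8 and 39.0 CPM in Mfn DKO livers and 18.7, 31.1 and 58.2 CPM in Tfam KO livers. Every liver of either genotype lay below the lowest control. The group means were 98.1 ± 19.3 CPM (SD, n = 6), 40.6 ± 9.59 CPM (SD, n = 4) and 36.0 ± 20.2 CPM (SD, n = 3). Seen only afterwards, its controls split by Xist, at 113 to 119 CPM with low and 75.4 to 85.1 CPM with high Xist. The order was reversed in the knockouts. Livers with high Xist held 54.6 and 39.0 CPM in Mfn DKO and 31.1 and 58.2 CPM in Tfam KO. Those with low Xist held 33.2 and 35.8 CPM and 18.7 CPM. A dependence of the F11 change on Xist was not tested. F11 fell in Mfn DKO livers (log2 fold change -1.27, SE 0.28, adjusted p = 0.0141) and in Tfam KO livers (log2 fold change -1.45, SE 0.31, adjusted p = 0.00565). The calls stood with each genotype fitted alone with the controls (adjusted p = 6.32e-04 and 0.0193) and without Tfam KO replicate 2 (Tfam KO log2 fold change -1.35, adjusted p = 0.0282), and the Mfn DKO call was lost without Mfn DKO replicate 1.

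Plasma prekallikrein, the contact system protease encoded by Klkb1, is made from a gene 4657 bases away from F11 on the same strand. Klkb1 (ENSMUSG00000109764, chr8:45266689-45294859) measured 175, 237 and 246 CPM in controls, 83.3, 101, 94.0 and 92.2 CPM in Mfn DKO livers and 43.4, 3.62 and 109 CPM in Tfam KO livers. Every liver of either genotype lay below the lowest control. Klkb1 fell in Tfam KO livers (log2 fold change -2.13, SE 0.66, adjusted p = 0.0286) and also without replicate 2 (log2 fold change -1.58, adjusted p = 0.0051), but not with Tfam KO and controls fitted alone (adjusted p = 0.0706). In Mfn DKO livers it stood at 40.6% of the control mean and was not called beside all groups (log2 fold change -1.30, SE 0.56, adjusted p = 0.154), and was called lower with the 2 groups fitted alone (adjusted p = 3.13e-05). On the annotation 43.2% of its exonic bases also belong to Gm45753, which was at or near 0 counts in every liver.

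The 250 bases before the RefSeq start of F11, Klkb1 and Masp2 are shown, since F11 and Masp2 were called in Mfn DKO livers and Klkb1 lies next to F11. Capitals mark matches, on either strand, to TGTTTAC, the core letters bound by the FOXA factors, and to TTGCNNAA, a C/EBP pattern. The sequences are from RefSeq on GRCm38.p6, 5′ to 3′ on the strand of the gene, and the GENCODE model of Klkb1 begins inside the stretch shown.
F11, chr8:45262032-45262281, minus strand: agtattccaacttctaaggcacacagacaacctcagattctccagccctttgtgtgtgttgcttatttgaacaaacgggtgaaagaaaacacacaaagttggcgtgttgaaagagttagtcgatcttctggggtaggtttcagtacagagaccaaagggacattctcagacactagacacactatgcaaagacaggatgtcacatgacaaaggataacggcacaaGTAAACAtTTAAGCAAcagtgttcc
Klkb1, chr8:45294836-45295085, minus strand: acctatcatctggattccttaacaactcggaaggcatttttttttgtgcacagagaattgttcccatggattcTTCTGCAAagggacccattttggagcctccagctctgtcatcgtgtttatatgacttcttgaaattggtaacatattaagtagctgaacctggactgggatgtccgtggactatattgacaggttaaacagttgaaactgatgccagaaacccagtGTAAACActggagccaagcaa
Masp2, chr4:148602294-148602543, plus strand: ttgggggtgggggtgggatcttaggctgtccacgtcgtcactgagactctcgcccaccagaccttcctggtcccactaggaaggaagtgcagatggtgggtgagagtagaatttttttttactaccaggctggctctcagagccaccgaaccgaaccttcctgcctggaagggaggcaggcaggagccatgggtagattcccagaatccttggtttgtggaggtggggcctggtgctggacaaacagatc
F11 and Klkb1 were the 2 members of the 31 with a promoter entry that held TGTTTAC, at 25 and 21 bases before the RefSeq start, and 3.17% of all 32851 mouse promoter stretches of this length hold it. On the GENCODE model of Klkb1 its TGTTTAC match lies just after the start. TTGCNNAA was found in 8 of the 31, against 9.56% of all, the half-site GTTAAT of HNF1 in 7, against 6.43% of all, and the C/EBP-ATF pattern TGATGNAA in none, against 3.45% of all. The Masp2 stretch held none of the 4. A match is a description of letters and shows no binding.

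Of the 12 hepatocyte regulators listed, 2 were called lower in Mfn DKO livers, Foxa1 and Foxa2, pioneer factors of liver genes, where 4.64% of all genes were. Foxa1 measured 19.3 to 34.0 CPM in controls, 11.6 to 15.5 CPM in Mfn DKO livers and 13.2, 10.6 and 14.4 CPM in Tfam KO livers. Foxa2 measured 29.6 to 60.6 CPM, 20.6 to 27.5 CPM and 16.2, 17.4 and 26.3 CPM in the same groups. No liver of either genotype reached the lowest control for either gene. The third FOXA gene, Foxa3, was not called, at 43.5 to 93.0 CPM in controls and 69.3 to 81.7 CPM in Mfn DKO livers (log2 fold change 0.20, adjusted p = 0.685 in Mfn DKO and -0.49, adjusted p = 0.289 in Tfam KO livers). Foxa1 fell by 0.75 and Foxa2 by 0.86 on the log2 scale in Mfn DKO livers (adjusted p = 0.0183 and 0.0235). In Tfam KO livers 4 of the 12 were called lower, where 11.3% of all genes were, among them Foxa1 (log2 fold change -0.86, adjusted p = 0.00673), Foxa2 (-1.14, adjusted p = 0.0047) and the bile acid receptor gene Nr1h4 (-0.75, adjusted p = 0.0131). Any link of these genes to the members was not tested.

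The plot of the 8 members called shows each liver's level. For Masp2, F11, Klkb1, Proc, F13b, C8g and Cpb2 no liver of either genotype overlapped the controls, and for Hrg the Mfn DKO livers did.

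**Figure D2:**
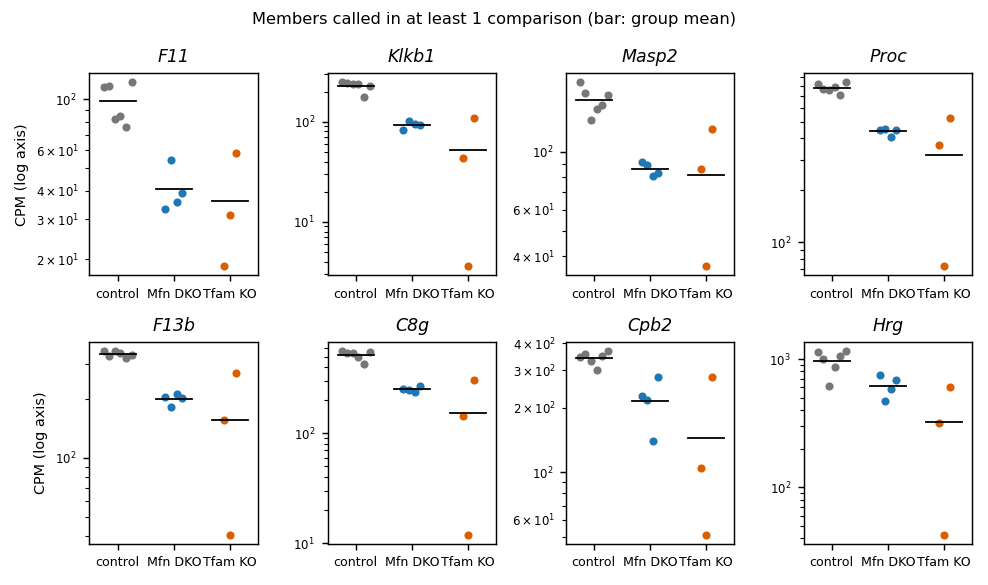
CPM (y axis) of F11, Klkb1, Masp2, Proc, F13b, C8g, Cpb2 and Hrg in each control, Mfn DKO and Tfam KO liver, 1 point per liver with a bar at the group mean. F11 runs from 75.4 to 119 CPM in controls and does not exceed 58.2 CPM in either knockout, while the Tfam KO points of most genes are widely spread.

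Factor XIII stabilizes fibrin, and its carrier B subunit is encoded by F13b. F13b measured 324, 339 and 352 CPM in controls, 205, 181, 211 and 203 CPM in Mfn DKO livers and 156, 40.5 and 269 CPM in Tfam KO livers. The controls lay close together and every other liver lay below them. F13b fell in Tfam KO livers (log2 fold change -1.13, SE 0.39, adjusted p = 0.044), a call that stood without replicate 2 (log2 fold change -0.67, adjusted p = 0.0215) but was lost with plain library totals (adjusted p = 0.0526). Its Mfn DKO difference was not called beside all groups (-0.76, adjusted p = 0.169) and was called with the 2 groups fitted alone (adjusted p = 6.48e-05).

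Factor V (F5), the cofactor of the enzyme that makes thrombin, lay higher in Mfn DKO livers than in controls. It was singled out after its values were seen. F5 measured 405, 515 and 564 CPM in controls, 829, 683, 826 and 587 CPM in Mfn DKO livers and 469.8, 116 and 519.9 CPM in Tfam KO livers. All 4 Mfn DKO livers lay above the highest control. The difference was not called beside all groups and was called with the 2 groups fitted alone (log2 fold change 0.53, adjusted p = 0.28 beside all groups and 0.0098 alone). The Tfam KO difference was -0.46 on the log2 scale (adjusted p = 0.332).

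The vitamin K dependent proteases are prothrombin (F2) and factors VII, IX and X (F7, F9, F10), and none of the 4 was called in either genotype beside all groups. Prothrombin measured 2135, 2317 and 2593 CPM in controls, 2122, 2224, 1956 and 2075 CPM in Mfn DKO livers and 1915, 705 and 2292 CPM in Tfam KO livers. Apart from Tfam KO replicate 2, its levels varied little among livers (log2 fold change -0.15, adjusted p = 0.729 for Mfn DKO and -0.51, adjusted p = 0.192 for Tfam KO). F7 measured 142 to 178 CPM in controls, 57.7 to 105 CPM in Mfn DKO livers and 44.7, 6.43 and 145 CPM in Tfam KO livers, and F9 measured 219 to 247, 151 to 197 and 101, 14.4 and 218 CPM. The Mfn DKO livers lay below all controls for both genes, which were called lower with the 2 groups fitted alone (adjusted p = 0.00138 and 0.00995). F10, which lies 1498 bases from F7, had a Mfn DKO mean of 81.6% of the control mean, against 53.4% for F7.

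The contact system starts clotting on surfaces and releases bradykinin. Kininogen (Kng1), the precursor of bradykinin, measured 1594, 1988 and 2268 CPM in controls, 2773, 2577, 2463 and 2775 CPM in Mfn DKO livers and 1519, 849 and 2114 CPM in Tfam KO livers. All Mfn DKO livers lay above all controls and above all Tfam KO livers. The Mfn DKO difference was not called beside all groups (log2 fold change 0.43, SE 0.22, adjusted p = 0.219), and was called with the 2 groups fitted alone (adjusted p = 0.0113). Kng1 has a close copy beside it, Kng2, as C1ra has in C1rb, and how the deposited counts split shared reads is not given in the sources used here. Kng2 measured 268 to 368 CPM in controls and 409 to 469 CPM in Mfn DKO livers. Kng1 was not called in Tfam KO livers against controls (log2 fold change -0.40, adjusted p = 0.229). Factor XII (F12), which activates prekallikrein, measured 592 to 701 CPM in controls, 531 to 578 CPM in Mfn DKO livers and 525, 361 and 556 CPM in Tfam KO livers, below all controls in either genotype without passing the test (adjusted p = 0.354 and 0.0519).

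The fibrinogen chains Fga, Fgb and Fgg lie side by side on chromosome 3 and varied together among livers. Fgg measured 2604, 2821 and 3365 CPM in controls, 2779, 2125, 1661 and 4226 CPM in Mfn DKO livers and 1164, 435 and 3394 CPM in Tfam KO livers. Mfn DKO replicate 4 was above every control and replicates 2 and 3 below, and Fga and Fgb had the same highest and lowest Mfn DKO livers. Fga ran from 2424 to 6236 CPM and Fgb from 2826 to 6455 CPM among them. No chain was called in either genotype, with log2 fold changes of -0.05, -0.13 and -0.11 in Mfn DKO and -0.80, -0.78 and -0.80 in Tfam KO livers. The acute-phase sum was also highest in Mfn DKO replicate 4 and lowest in replicate 3, and in Tfam KO livers was 9827, 3622 and 21154 CPM, and its part in the spread was not tested.

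**Figure D3:**
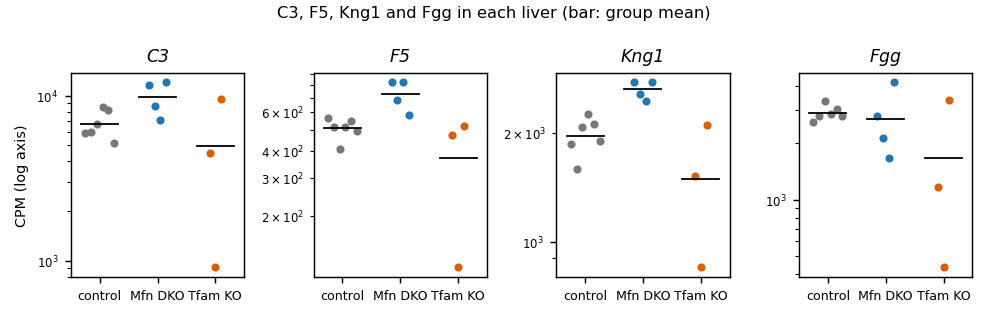
CPM (y axis) of C3, F5, Kng1 and Fgg in each control, Mfn DKO and Tfam KO liver, 1 point per liver with a bar at the group mean. For F5 and Kng1 the 4 Mfn DKO livers lie above all controls, while Fgg spreads from 1661 to 4226 CPM among them.

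Fibrinolysis and its brakes held 2 of the genes called in Tfam KO livers. Cpb2 encodes the carboxypeptidase that trims fibrin and slows its lysis. It measured 299.9, 347 and 369 CPM in controls, 226, 218, 139.8 and 278 CPM in Mfn DKO livers and 105, 51.2 and 280.1 CPM in Tfam KO livers. Cpb2 fell in Tfam KO livers (log2 fold change -1.23, SE 0.40, adjusted p = 0.0351), where all 3 lay below the controls, but not without replicate 2 (log2 fold change -0.83, adjusted p = 0.0936). Its Mfn DKO difference was -0.67, adjusted p = 0.237 beside all groups and was called with the 2 groups fitted alone (adjusted p = 0.00974).

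Hrg, the histidine-rich glycoprotein of plasma, binds plasminogen and heparin. It measured 612, 1035 and 1158 CPM in controls, 747, 473, 581 and 683 CPM in Mfn DKO livers and 319.6, 42.9 and 602 CPM in Tfam KO livers. The Mfn DKO livers overlapped the controls and the Tfam KO livers did not. Hrg fell in Tfam KO livers (log2 fold change -1.60, SE 0.55, adjusted p = 0.0457) and also without replicate 2 (log2 fold change -1.08, adjusted p = 0.0275), and its Mfn DKO difference was -0.65, adjusted p = 0.4. Hrg lies 96208 bases from Kng1, and the Mfn DKO means of these neighbours were 63.8% and 134% of the control means. Plasminogen (Plg) measured 2105, 2288 and 2408 CPM in controls, 1925, 1528, 1484 and 1941 CPM in Mfn DKO livers and 927, 179 and 1979 CPM in Tfam KO livers. It lay below all controls in either genotype but was not called (-0.40, adjusted p = 0.571 and -1.14, adjusted p = 0.093). The plasmin inhibitor Serpinf2 was not called either (-0.24, adjusted p = 0.726 and -0.97, adjusted p = 0.122).

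Among the anticoagulants, protein C (Proc), which with protein S cuts factors V and VIII, was called in Tfam KO livers. Proc measured 708, 784 and 842 CPM in controls, 448, 455, 408 and 449 CPM in Mfn DKO livers and 368, 73.0 and 524 CPM in Tfam KO livers. All livers of either genotype lay below all controls. Proc fell in Tfam KO livers (log2 fold change -1.29, SE 0.41, adjusted p = 0.0331) and also without replicate 2 (log2 fold change -0.81, adjusted p = 0.00504). In Mfn DKO livers it was not called beside all groups (-0.83, adjusted p = 0.156) and was called lower with the 2 groups fitted alone (adjusted p = 7.18e-05). Heparin cofactor II (Serpind1) measured 619, 726 and 812 CPM in controls, 658, 627, 640.0 and 560.0 CPM in Mfn DKO livers and 376, 41.5 and 639.5 CPM in Tfam KO livers, and was not called (-0.20, adjusted p = 0.813 and -1.01, adjusted p = 0.16). Antithrombin (Serpinc1) and protein S (Pros1) had log2 fold changes of -0.30 and -0.07 in Mfn DKO and -0.91 and -0.45 in Tfam KO livers, none of them called.

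Tfam KO livers were also set against Mfn DKO livers directly. No member was called between them by edgeR, where 0.294% of all genes were called, while 5 members had an unadjusted p under 0.05 and DESeq2 called 1, Kng1. All 40 fitted differences were below 0, with a median of -0.65, though with library totals Masp2 and F11 were above 0 and the median was -0.51. F5 and Kng1 were the 2 members for which every Tfam KO liver lay below every Mfn DKO liver. The shares of all genes that did so, or that had an unadjusted p under 0.05, were not counted. Kng1 differed by -0.82 (adjusted p = 0.124) and F5 by -0.99 (adjusted p = 0.169) on the log2 scale. Tfam KO replicate 2 carried much of this, since the median was -0.17 without it. Without replicate 3, 21 members were called lower with a median of -1.27, where 24% of all genes were called and 10.1% called lower.

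Within controls, several members followed Xist, and the genes in this and the next paragraph were singled out after their values were seen. C6, the first protein to join C5b in the pore, was called for its relation to the Xist level across the 13 livers with genotype in the model (adjusted p = 0.00869), and was the one member called, where 3.03% of all genes were. C6 measured 233, 337 and 215 CPM in the 3 controls with low Xist and 22.1, 23.1 and 30.4 CPM in the 3 with high Xist, a ratio of 10.4. In Mfn DKO livers it measured 95.2 and 66.8 CPM with low Xist and 32.0 and 40.8 CPM with high Xist, and in Tfam KO livers 48.2 CPM with low and 10.5 and 22.0 CPM with high Xist. C6 was higher in every liver with low Xist than in every liver with high Xist of its own genotype.

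The other pore genes had a like split among controls. C8a measured 1049.7, 1384 and 946 CPM in the controls with low Xist and 356, 354 and 274 CPM in those with high Xist. C8b, which lies 11130 bases from C8a, measured 403, 533 and 403 and 156, 117 and 91.6 CPM, and C9, which completes the pore, 709.5, 958 and 568 and 237, 214 and 277 CPM. The ratios of the means were 3.43, 3.67 and 3.07, whereas the C8 gamma chain gene C8g, on another chromosome, overlapped. The split was weaker or mixed in the knockouts, C8b being the one of these 3 that kept the order in all groups. The C1q chains ran the opposite way, with ratios of 0.5998, 0.604 and 0.607 for C1qa, C1qb and C1qc, as did Mbl2 at 0.437. The Kupffer cell and macrophage markers split the same way, at 659, 703 and 717 CPM in sum in the controls with low Xist and 994, 937 and 1130.4 CPM in those with high Xist, and their part in the C1q values was not tested.

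In all, 8 members, F11 and Masp2 among them, were higher in each control with low Xist than in each with high Xist. Another 13 were the reverse and 19 overlapped. The share of all genes that split in this way was not counted, so these counts have no background beside them. None of C6, C8a, C8b or C9 was called in either genotype by edgeR with all 13 livers. In Tfam KO livers DESeq2 called C6, C8a and C9 lower, and edgeR called C6 lower without control replicate 3 or 4 and C9 lower without Tfam KO replicate 3. In Mfn DKO livers C8b was called with the 2 groups fitted alone and a Xist term. Their group means mix livers of both kinds. The comparisons were therefore also made within livers of like Xist. Mfn DKO means lay below control means for 33 members with low Xist and 29 with high Xist, with medians of -0.35 and -0.28, and 34 of 40 had the same sign in both. The Tfam KO group held 1 liver with low Xist, replicate 1, which lay below the control mean for all 40 members with a median of -1.01. The mean of its 2 livers with high Xist also lay below for all 40, with a median of -0.83, but it averages replicate 2, at a median of 14.1% of the control mean, with replicate 3, at 89.8% and with 4 members above every control.

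**Figure D4:**
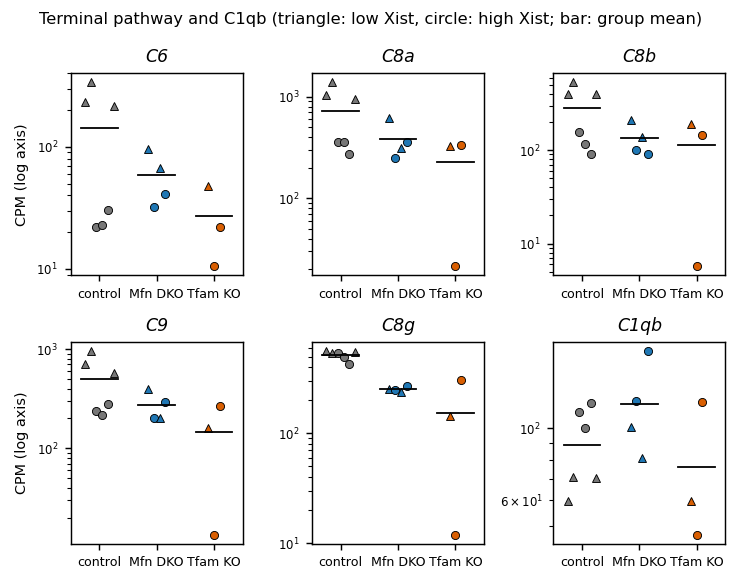
CPM on a log axis (y axis) of C6, C8a, C8b, C9, C8g and C1qb in each liver by genotype, triangles for livers with low Xist, circles for high Xist, bars at group means. In controls C6, C8a, C8b and C9 separate by Xist, C6 at 215 to 337 CPM against 22.1 to 30.4 CPM, and C8g does not.

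Of 28 further complement genes listed, 25 were tested, and 1 was called lower in Mfn DKO and 2 in Tfam KO livers, where 4.64% and 11.3% of all genes were. Cd59a, which protects cells from the pore, measured 95 to 111 CPM in controls, 56.4 to 64.6 CPM in Mfn DKO livers and 37.5, 37.5 and 75.6 CPM in Tfam KO livers. It fell in either genotype (log2 fold change -0.81, adjusted p = 0.014, and -1.05, adjusted p = 0.0031). C1rl, a C1r-like protease gene, fell in Tfam KO livers (-1.11, adjusted p = 0.0313). The median log2 fold change of the tested genes was -0.25 in Mfn DKO and -0.41 in Tfam KO livers.

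Of 29 further coagulation and fibrinolysis genes, 27 were tested. In Mfn DKO livers 1 was called higher, the annexin gene Anxa2, whose product binds plasminogen on cell surfaces (log2 fold change 1.21, adjusted p = 0.0378), where 5.23% of all genes were called higher. In Tfam KO livers 7 were called higher and none lower, where 18.1% of all genes were called higher, among them Anxa2 (2.08, adjusted p = 0.0021), the protease-activated receptor gene F2rl1 (3.76, adjusted p = 0.0023) and the thrombospondin gene Thbs1 (2.87, adjusted p = 0.00276). F2rl1 and Thbs1 were low in most livers, and Tfam KO livers held 0.852, 8.002 and 0.536 CPM and 2.26, 14.8 and 1.68 CPM, the highest in replicate 2. Anxa2 measured 13.2 to 22.8 CPM in controls, 28.8 to 46.7 CPM in Mfn DKO livers and 68.5, 123 and 23.2 CPM in Tfam KO livers. Many genes of this list are expressed outside hepatocytes.

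A list of 8 genes covered vitamin K and the secretion of clotting factors. In Mfn DKO livers 1 was called higher, where 5.23% of all genes were. In Tfam KO livers 1 was called higher and 2 lower, where 18.1% and 11.3% of all genes were. Ggcx, the vitamin K dependent carboxylase, and Vkorc1, which recycles the vitamin, fell in Tfam KO livers (-0.77, adjusted p = 0.0236, and -1.16, adjusted p = 0.0443). Calu, an endoplasmic reticulum protein that inhibits the carboxylase, rose in Mfn DKO (0.38, adjusted p = 0.0371) and in Tfam KO livers (0.61, adjusted p = 0.00264). Ggcx measured 51.0 to 69.2 CPM in controls and 27.5, 22.6 and 55.0 CPM in Tfam KO livers, so that replicate 3 lay among the controls.

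Marker lists of liver cells were set beside the members, as in the plot of list medians by liver. None of 12 hepatocyte genes was called in Mfn DKO livers and 4 were called lower in Tfam KO livers, where 11.3% of all genes were, among them Ttr (log2 fold change -1.35, adjusted p = 0.00656), Apoa1 (-1.63, adjusted p = 0.0185) and Apoh (-1.45, adjusted p = 0.0374), which encode plasma transport proteins and lipoproteins. The median over the hepatocyte list was -0.33 in Mfn DKO and -0.84 in Tfam KO livers, close to the -0.34 and -0.93 of the members, a comparison of medians without a test. Of 13 acute-phase genes, Apcs, a mouse acute-phase pentraxin, rose in Mfn DKO livers (3.21, adjusted p = 0.00588), and Apcs (3.096, adjusted p = 0.00353) and Lcn2 (3.29, adjusted p = 0.0186) rose in Tfam KO livers. The list median was 0.45 in Mfn DKO and -0.10 in Tfam KO livers, at -1.69, -1.79 and 0.82 in Tfam KO replicates 1 to 3. Apcs held 1214, 101 and 1189 CPM there and Lcn2 10.4, 231 and 130 CPM. Controls held 41.5 to 176 CPM and 2.55 to 35.9 CPM. Of 13 Kupffer cell and macrophage genes, only the scavenger receptor gene Marco was called, higher in either genotype (2.596, adjusted p = 0.00144, and 1.44, adjusted p = 0.0154). The list median was 0.52 in Mfn DKO and -0.31 in Tfam KO livers, so that Marco ran against its list in Tfam KO livers. Endothelial markers summed to 343 to 402 CPM in controls, 343 to 509 CPM in Mfn DKO livers and 343 to 411 CPM in Tfam KO livers, with 1 gene of 10 called higher in Tfam KO livers. Of 10 stellate cell and fibroblast genes 2 were called higher in Mfn DKO, and 1 higher and 1 lower in Tfam KO livers, Col1a1 rising in either genotype (1.27, adjusted p = 0.00857, and 1.46, adjusted p = 0.00253). Duct, neutrophil and erythroid lists had no call in either genotype, and 1 of 8 lymphocyte genes was called lower in Tfam KO livers. Beside these counts, 5.23% of all genes were called higher in Mfn DKO livers. In Tfam KO livers 18.1% were called higher and 11.3% lower. The list counts were not tested against those shares.

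**Figure D5:**
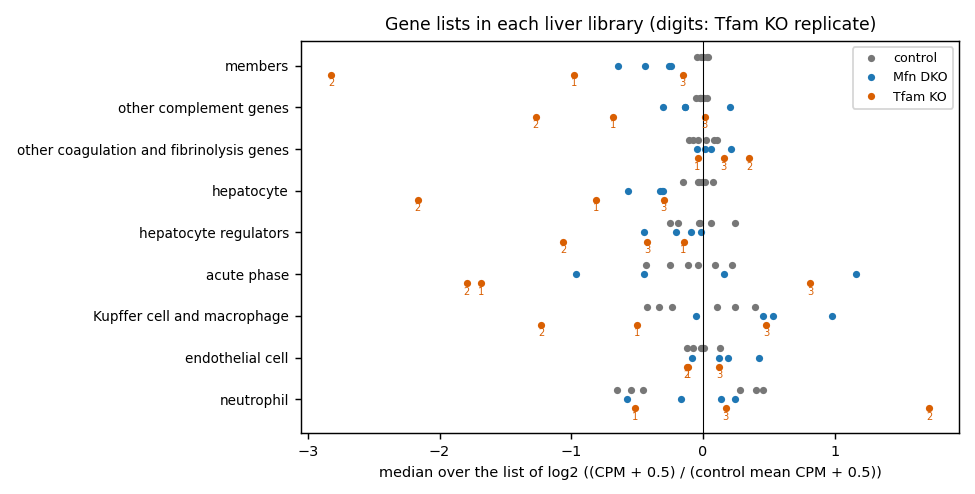
Median over each gene list of log2 of (CPM + 0.5) over (control mean CPM + 0.5) in each liver (x axis), lists in rows, 1 point per liver, digits giving the Tfam KO replicate. The members and the hepatocyte list run in the same order in the Tfam KO livers, replicate 2 lowest and replicate 3 nearest to the controls, while their endothelial list lies among or beside the controls. Replicate 2 is also lowest and replicate 3 highest in the other complement, acute-phase and Kupffer cell lists. The hepatocyte regulators, other coagulation genes and neutrophil list run in other orders.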

How the data were processed

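Gene counts and TPM values of 13 mouse liver libraries were used as the authors deposited them. Per the submitters' processing notes, STAR 2.6.1b, RSEM 1.3.1 and featureCounts were used on GRCm38, with no role stated for each. The deposited counts are raw whole numbers per gene, and the deposited TPM values served only to compare levels between genes. Counts were fitted in R 4.3.3 with edgeR 4.0.16 (TMM factors, filterByExpr by group, quasi-likelihood F-test, all 13 livers in 1 fit, no covariate), leaving 17024 of 55487 genes, with Benjamini-Hochberg adjustment over them. The threshold for a call was 0.05. DESeq2 1.42.0 was an alternative. The SE was derived from the fold change and the F statistic. With 3 to 6 livers per group, p-values set each difference against a spread estimated from the livers in the fit.

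The members and gene lists were chosen with earlier results of these data known. Genes named with values were members called in any comparison at a change of at least 1.5-fold, the member with the highest TPM of each role, and up to 3 genes of smallest adjusted p per other list. F5, C6, C8a, C8b, C9 and the C1q chains, and others given by range or fold change, were added after their values were seen. Alternatives were DESeq2, its size factors, library totals, a minimum of 10 counts, each 2 groups alone, a Xist term, a replicate block and leaving out each liver. Library totals, the fits that join a Xist term to other choices, the Mfn DKO fit without Tfam KO replicate 2 and the unblocked fit of the block's livers were chosen after seeing the data. Promoter stretches were the RefSeq entries of GRCm38.p6, matched by symbol for 31 of 40 members.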

Additional observations from a re-analysis of the deposited data

Results flagged for a closer look

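In control livers 1 Klkb1 value stood apart from the other 5, at 175.2 CPM in replicate 5, where the others lay at 227 to 247 CPM. Among Mfn DKO livers, replicate 3 stood apart for F10, at 510.2 CPM against 640.1 to 665 CPM in the other 3, and for Proc, at 408 CPM against 448 to 455 CPM. Replicate 3 also had the largest number of members below every control among Mfn DKO livers, 28 of 40, a count not made over all genes. A gap of this size relative to a group's range is expected by chance in about 1 in 20 groups examined. That liver also had the lowest summed member CPM of the 4, at 31218.

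For C6 and C2 the Mfn DKO difference ran in opposite directions in livers with low and with high Xist. The log2 ratio of Mfn DKO to control means in livers with low Xist minus that in livers with high Xist was -2.22 for C6 and -0.791 for C2. This difference between the 2 kinds of liver was not tested, and each kind held 2 Mfn DKO and 3 control livers.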

How the results depend on the processing

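The number of members called in Mfn DKO livers, 2 as reported, was 17 with the 2 groups fitted alone, 25 with a Xist term added to that fit, 11 with all groups but Tfam KO replicate 2 left out, and 0 to 2 when each Mfn DKO or control liver was left out. In Tfam KO livers, 8 as reported, it was 19 by DESeq2, 1 with the 2 groups alone with or without a Xist term, 14 with replicate 2 left out and a Xist term, and 1 to 34 when each Tfam KO or control liver was left out. Between the knockouts, 0 as reported, it was 1 by DESeq2 and 0 to 21 when each liver of either knockout was left out. Deviations of same-numbered livers had correlations of -0.346 to 0.354, and those of replicate 1 were above 0 in every comparison. Livers of unlike number were not correlated, and some same-numbered livers differ in Xist, so these values cannot decide whether the numbers pair livers. The main fit used no pairing. A replicate block called 10 members in Mfn DKO livers, 14 in the same livers unblocked, and 0 in both Tfam KO comparisons, where the same livers unblocked also gave 0. Over all genes, 1681 calls in Mfn DKO livers became 4338 with the 2 groups alone and 5619 with a Xist term added. The same 1681 became 3379 without Tfam KO replicate 2, 2870 by DESeq2, 2394 with the replicate block and 3299 in its livers unblocked. They became 1020, 1054 and 924 without control replicates 1, 2 and 6, and 686, 793, 899 and 900 without Mfn DKO replicates 1 to 4. The 4992 calls in Tfam KO livers became 3339, 2504 and 7330 without Tfam KO replicates 1 to 3. They became 3228 with the 2 groups alone, 2633 with a Xist term added and 8154 with library totals. DESeq2 called 5884, and the fit without replicate 2 and with a Xist term called 3490. The livers of the block fit gave 0 with or without the block. The 50 between the knockouts became 4204 without Tfam KO replicate 3, 24 and 29 without Mfn DKO replicates 1 and 3, 32 without Mfn DKO replicate 4, 7 with the 2 groups alone, 1 with the block and 2 in its livers unblocked, 27 with at least 10 counts, 78 without Tfam KO replicate 2 and with a Xist term, 1226 with library totals and 1065 by DESeq2.

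Library totals turned the sign of small fold changes: in Mfn DKO livers F2 to 0.0412, Fgg to 0.0838, Fga to 0.14, Fgb to 0.0623 and Pros1 to 0.12, in Tfam KO livers C1qb to 0.12, and between the knockouts Masp2 to 0.0734 and F11 to 0.0134. With replicate 2 left out and a Xist term, the knockout difference turned to 0.0733 for F13b, 0.49 for C8b, 0.28 for Masp2, 0.0457 for F7, 0.0668 for F10, 0.0124 for Proc and 0.0331 for Mbl2. Leaving out each liver of the groups compared gave log2 fold changes of -0.42 to 0.0666 for Fgg, -0.37 to 0.12 for Fga, -0.40 to 0.0292 for Fgb, -0.17 to 0.00732 for Pros1 and -0.0600 to 0.12 for C2 in Mfn DKO livers, and -0.75 to 0.0245 for C1qb and -1.34 to 0.0540 for C3 in Tfam KO livers. Between the knockouts it gave -1.02 to 0.0914 for F13b, -0.68 to 0.00767 for F2, -0.84 to 0.30 for C8b, -0.49 to 0.27 for Masp2, -1.71 to 0.18 for F7, -1.06 to 0.12 for F10, -0.71 to 0.13 for F11, -0.997 to 0.0199 for Proc and -1.30 to 0.17 for Mbl2. The cause of these turns was not tested. Of the member values under all alternatives, 35 turned sign, 142 passed the threshold newly, 75 no longer passed it and 2068 kept sign and side.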
